A study of Mus musculus with 30 samples.

Results

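The 9 genes described here, tied to interferon signalling and antigen presentation, were followed in mouse embryonic stem cells as Nanog fell and returned. They were Irgm1, Irf1, B2m, Tap1, Psmb8, Psmb9, Ifitm1, Ifitm2 and Ifitm3, chosen by name among the 23385 named transcript clusters of the array (a cluster is a set of probes for 1 transcription unit). The choice was made with earlier results of these data known. Counts of the 9 beside shares of all clusters are thus a description and not a test of the set. Each gene was read from a cluster naming that gene alone, and where there were several, from the one with the highest mean over all 30 arrays. All 9 were found.

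The cells were 1 clone, NgR (genotype AINV15_Nanog_Rescue Clone), made from rtTA-expressing embryonic stem cells and kept on primary mouse embryonic fibroblasts, in which Nanog, a transcription factor of pluripotency, depends on doxycycline. Day 0 cells were harvested in doxycycline at 1 ug/ml. Withdrawn cells were harvested after 1, 3 or 5 days without it. On each of these 3 days, further cells went on for 12 h either with doxycycline added back (the pulse) or without it (the timed control). The 10 groups held 3 arrays each, and whether the 3 came from separate cultures is not given; p-values here then speak only of the scatter among arrays, which may be technical. All groups shared the clone and the feeder cells. The groups analysed here hold neither cells kept in doxycycline to days 1, 3 or 5 nor cells without the rescue construct. Time in culture and the fall of Nanog can therefore not be told apart in a comparison with day 0. Between the pulse and its timed control, doxycycline and Nanog change together, and their effects cannot be told apart either.

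Interferons bind receptors that act through JAK kinases and STAT factors. Type I interferons lead to the binding of promoter elements of the GAAANNGAAA kind, and interferon-gamma to the binding of elements of the TTCNNNGAA kind and to the making of Irf1, itself a transcription factor. Irf1 in turn acts on genes of the class I antigen presentation route: the immunoproteasome subunits Psmb8 and Psmb9, which cut proteins into peptides, the transporter subunit Tap1, which brings peptides into the endoplasmic reticulum, and B2m, the light chain of the class I molecule that displays them. Irgm1 is an interferon-induced GTPase, and the Ifitm proteins are membrane proteins that hinder virus entry. Pluripotent cells are known for low class I display, a weak response to interferon and high levels of some Ifitm genes without it.

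The promoters of these genes are shown because the results below separate genes that share such letters. All 9 genes matched the RefSeq promoter table (build GRCm38.p6), whose windows run from 250 bases before to 50 bases after an annotated start, and 10 windows belonged to them, 2 of them to Irf1. In the lines below, read 5′ to 3′ along each gene, capitals mark every match to GAAANNGAAA or TTCNNNGAA, searched on both strands with overlaps allowed.
Irgm1 (chr11:48871371-48871670, reverse strand): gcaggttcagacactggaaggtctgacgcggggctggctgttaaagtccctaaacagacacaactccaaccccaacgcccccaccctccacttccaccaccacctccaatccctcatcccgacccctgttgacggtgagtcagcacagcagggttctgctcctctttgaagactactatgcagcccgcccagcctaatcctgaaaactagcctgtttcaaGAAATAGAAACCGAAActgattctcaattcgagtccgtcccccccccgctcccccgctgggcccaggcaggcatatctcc
Irf1 (chr11:53769764-53770063, forward strand): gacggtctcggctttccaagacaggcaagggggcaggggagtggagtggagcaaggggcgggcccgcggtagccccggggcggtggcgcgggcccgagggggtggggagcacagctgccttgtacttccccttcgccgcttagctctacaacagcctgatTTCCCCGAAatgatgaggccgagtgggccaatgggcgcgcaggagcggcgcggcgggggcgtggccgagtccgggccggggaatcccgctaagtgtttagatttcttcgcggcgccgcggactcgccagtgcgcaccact
B2m (chr2:122147437-122147736, forward strand): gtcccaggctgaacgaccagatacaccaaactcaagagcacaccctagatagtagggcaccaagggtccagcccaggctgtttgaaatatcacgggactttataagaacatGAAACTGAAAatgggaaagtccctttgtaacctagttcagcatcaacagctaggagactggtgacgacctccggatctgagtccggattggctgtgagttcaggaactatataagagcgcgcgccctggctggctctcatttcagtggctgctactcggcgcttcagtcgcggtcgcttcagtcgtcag
Tap1 (chr17:34187306-34187605, forward strand): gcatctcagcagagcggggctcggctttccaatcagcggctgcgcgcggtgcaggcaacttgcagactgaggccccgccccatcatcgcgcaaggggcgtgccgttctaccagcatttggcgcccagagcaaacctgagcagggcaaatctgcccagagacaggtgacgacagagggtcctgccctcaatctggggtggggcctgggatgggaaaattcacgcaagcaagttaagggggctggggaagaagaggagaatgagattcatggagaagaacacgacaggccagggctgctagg
Psmb8 (chr17:34197945-34198244, forward strand): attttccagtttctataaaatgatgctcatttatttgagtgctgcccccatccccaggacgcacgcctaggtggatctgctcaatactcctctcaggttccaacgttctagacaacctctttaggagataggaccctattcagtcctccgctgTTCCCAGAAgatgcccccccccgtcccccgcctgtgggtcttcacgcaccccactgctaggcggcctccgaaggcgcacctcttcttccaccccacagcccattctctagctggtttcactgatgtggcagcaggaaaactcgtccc
Ifitm2 (chr7:140955912-140956211, reverse strand): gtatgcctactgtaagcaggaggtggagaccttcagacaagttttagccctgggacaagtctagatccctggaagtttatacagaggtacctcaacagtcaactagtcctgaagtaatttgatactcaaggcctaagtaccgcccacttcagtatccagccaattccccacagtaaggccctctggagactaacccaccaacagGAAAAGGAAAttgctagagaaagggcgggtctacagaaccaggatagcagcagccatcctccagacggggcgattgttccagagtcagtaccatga
Ifitm3 (chr7:141010695-141010994, reverse strand): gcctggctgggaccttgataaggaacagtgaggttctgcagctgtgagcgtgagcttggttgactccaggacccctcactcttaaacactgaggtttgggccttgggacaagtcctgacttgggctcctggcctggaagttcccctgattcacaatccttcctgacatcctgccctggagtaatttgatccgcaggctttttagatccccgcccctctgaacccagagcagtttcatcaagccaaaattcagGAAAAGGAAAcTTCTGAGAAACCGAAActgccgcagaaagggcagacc
Irgm1 held 2 overlapping GAAANNGAAA matches, GAAATAGAAA and GAAACCGAAA, which began 30 and 24 bases before the start. B2m held 1 such match, GAAACTGAAA, and Ifitm2 held 1, GAAAAGGAAA. Ifitm3 held 2, and its TTCNNNGAA match TTCTGAGAA overlapped the later of them. The Irf1 window shown held TTCCCCGAA and the Psmb8 window held TTCCCAGAA. The Tap1, Psmb9 and Ifitm1 windows and the other Irf1 window held neither. The windows of Tap1 and Psmb9, which lie head to head on opposite strands, share 275 bases, so the Tap1 line shows nearly the whole Psmb9 window too. Over all 32851 promoter windows of the table, 3.44% held GAAANNGAAA and 8.3% held TTCNNNGAA. A match is a string of letters and not a bound site.

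Nanog itself followed the labels. Its log2 signal was at least 10.70 on the 12 arrays with doxycycline and at most 10.57 on the 18 without, and the pulse raised it by 0.79, 0.80 and 0.78 on days 1, 3 and 5. Its mean in withdrawn cells was 10.24 on day 1, 10.51 on day 3 and 9.85 on day 5. Array medians lay between 7.32 and 7.46 and interquartile ranges between 2.43 and 2.95, and the 4 widest arrays were all timed controls (day 1 replicate 3, day 3 replicate 2, day 5 replicates 2 and 3). All values below are log2 signals per cluster, as normalized by the authors, and a difference of 1 is a doubling. A gene was called where its limma p, after Benjamini-Hochberg adjustment across the 23385 clusters, was under 0.05.

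Withdrawal of doxycycline, and with it lower Nanog signal, was followed by higher signal of the class I route genes, of Irf1 and of Irgm1. The 3 Ifitm genes had lower signal. On day 1 the genes Irgm1, Irf1 and Psmb8 rose and all 3 Ifitm genes fell, so that 6 of the 9 were called, against 6.51% of all clusters (3.49% higher and 3.02% lower). On day 3 all 9 were called, 6 higher and 3 lower, against 33.8% of all clusters (19.6% higher and 14.3% lower). The same counts held on day 5, when 42.5% of all clusters were called (23.8% higher and 18.8% lower). The 3 comparisons share the day 0 arrays, and the 9 genes were chosen with earlier results of these data known. Over all clusters the split turned with the scaling: 815 higher and 707 lower on day 1 became 465 and 609 with each array centred on its median, and 4580 and 3334 on day 3 became 3248 and 4130. From day 1 to day 3 of withdrawal 5 of the 9 rose and none fell (Irf1, B2m, Tap1, Psmb8 and Psmb9; 22.9% of all clusters were called, 13.2% higher). From day 3 to day 5, B2m and Tap1 rose on and Irgm1, Irf1 and Ifitm1 fell (12.3% of all clusters were called, 7.59% higher and 4.75% lower). The Psmb9 step was not called without day 1 replicate 1 or 2 or day 3 replicate 2 or 3 (0.0524 to 0.0809), nor the Ifitm1 step without day 3 replicate 1 or 3 or day 5 replicate 2 or 3 (0.0569 to 0.188). The Psmb9 step was also not called under quantile normalization (0.26, adjusted p = 0.0811), nor the Ifitm1 step with arrays centred (adjusted p = 0.102) or with only the compared groups in the limma fit (adjusted p = 0.104). All 9 genes kept their direction at every day of withdrawal under that centring and under quantile normalization.

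**Figure D1:**
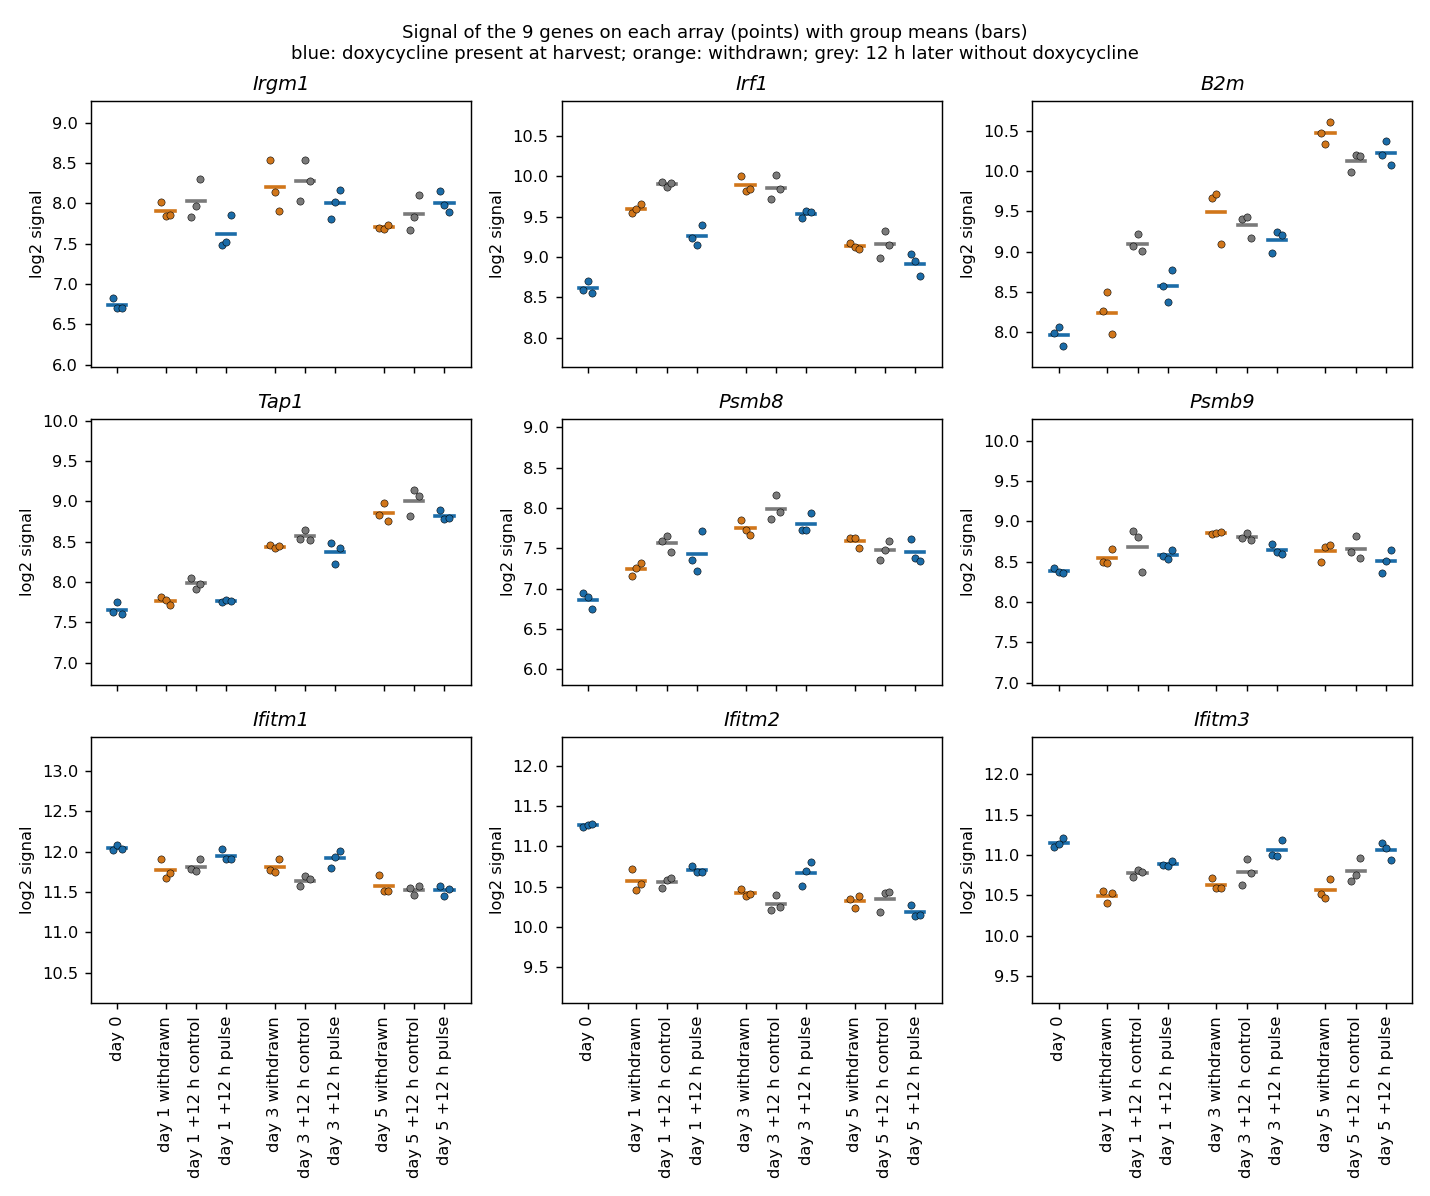
Log2 signal of each of the 9 genes (vertical axis) on each of the 30 arrays (points), by group (horizontal axis), with group means as bars; colours give doxycycline present at harvest, withdrawn, or 12 h later without it. Day 0 has the lowest mean of the 10 groups for Irgm1, Irf1, B2m, Tap1, Psmb8 and Psmb9 and the highest for the 3 Ifitm genes.

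Irf1 and Irgm1, the interferon-linked regulators, moved within 1 day. Irf1 read 8.60, 8.71 and 8.56 on the 3 day 0 arrays and 9.55, 9.60 and 9.66 on day 1 of withdrawal. It read 10.00, 9.83 and 9.85 on day 3 and 9.17, 9.13 and 9.10 on day 5. All 9 arrays of withdrawn cells were above all day 0 arrays, and all day 5 arrays were below those of days 1 and 3. Irf1 rose by 0.98 ± 0.086 (SE) on day 1 (adjusted p = 2.26e-08), by 1.27 on day 3 (1.44e-11) and by 0.51 on day 5 (1.95e-05). The step from day 1 to day 3 was 0.29 (adjusted p = 0.0145) and the step from day 3 to day 5 was -0.76 (6.67e-07). The first of these was not called with arrays centred on their medians (0.0755), nor without day 1 replicate 1 (0.0647) or day 3 replicate 1 (0.0942).

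A further cluster also named Irf1, number 10385870, did not move with the one used (number 10376060). Its group means lay between 6.95 and 7.21, its differences from day 0 were -0.01, 0.11 and 0.15 on days 1, 3 and 5, and it was called on none of these days (adjusted p = 0.98, 0.418 and 0.237). Over the 30 arrays its correlation with the cluster used was -0.07, given as a description. What its probes match was not tested, and the Irf1 results rest on 1 cluster.

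Irgm1 read 6.83, 6.70 and 6.70 on day 0 and 8.01, 7.84 and 7.85 on day 1 of withdrawal. It read 8.54, 8.14 and 7.90 on day 3, and 7.69, 7.68 and 7.73 on day 5. Every array after day 0, pulsed or not, was at or above 7.48, and the day 0 arrays stood apart below. The rises over day 0 were 1.16 ± 0.15 (SE) on day 1 (adjusted p = 5.45e-06), 1.45 on day 3 (1.58e-08) and 0.96 on day 5 (4.67e-06), or 2.23-fold, 2.74-fold and 1.94-fold. The day 3 arrays were spread (SD 0.32). The step from day 3 to day 5, -0.49 (adjusted p = 0.0238), was not called with arrays centred on their medians (0.0557), without day 3 replicate 1, where it was -0.32 (0.215), or without any 1 of the day 5 arrays (0.0559 to 0.0727).

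B2m and Tap1, the class I light chain and a peptide transporter subunit, rose later and went on rising. B2m read 7.995, 8.06 and 7.83 on day 0 and 8.26, 8.50 and 7.98 on day 1 of withdrawal, with overlap. It read 9.66, 9.72 and 9.10 on day 3 and 10.47, 10.33 and 10.61 on day 5. Each of these later groups was above all earlier withdrawal arrays. The difference from day 0 was 0.28 ± 0.14 (SE) on day 1 (adjusted p = 0.297), 1.53 on day 3 (3.01e-09) and 2.51 on day 5 (9.39e-14), the last a 5.68-fold rise and the largest of the 9 genes. Both steps were called, 1.25 between days 1 and 3 and 0.98 between days 3 and 5 (adjusted p = 2.58e-07 and 1.78e-05).

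Tap1 read 7.63, 7.75 and 7.61 on day 0 and 7.81, 7.78 and 7.71 on day 1. It read 8.45, 8.42 and 8.44 on day 3 and 8.83, 8.98 and 8.75 on day 5. The last 2 groups overlapped with no earlier one. The difference was 0.11 ± 0.078 (SE) on day 1 (not called), 0.78 on day 3 (adjusted p = 1.54e-08) and 1.19 on day 5 (1.9e-12). The steps were 0.67 and 0.42, both called. Over the 10 group means B2m and Tap1 correlated at 0.95, whereas B2m and Irf1 correlated at -0.01; these are descriptions over groups that share the time course.

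Psmb8 and Psmb9, the immunoproteasome subunits, rose most by day 3. Psmb8 read 6.94, 6.90 and 6.75 on day 0 and 7.15, 7.25 and 7.32 on day 1 of withdrawal. It read 7.85, 7.73 and 7.66 on day 3, and 7.63, 7.63 and 7.51 on day 5. No later array reached down to day 0. The rises were 0.38 ± 0.11 (SE) on day 1 (adjusted p = 0.0283), 0.88 on day 3 (2.49e-07) and 0.72 on day 5 (2.36e-06), with 0.51 from day 1 to day 3 (0.000721). The day 1 call was lost with arrays centred on their medians (0.101), and without day 0 replicate 2 (0.0548) or 3 (0.17) or day 1 replicate 2 (0.0882) or 3 (0.131). Psmb9 moved less: its differences were 0.16 ± 0.097 (not called), 0.47 (adjusted p = 0.000386) and 0.24 (0.0447). Its arrays read 8.36 to 8.42 on day 0, 8.84 to 8.87 on day 3 and 8.49 to 8.71 on day 5. The day 5 call was lost with arrays centred on their medians (0.089), under quantile normalization (0.122, adjusted p = 0.384), with the replicate number as a block (0.0533), and without any 1 of the day 0 arrays or of day 5 replicates 2 and 3.

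Core proteasome subunits other than those of the immunoproteasome mostly moved the other way. Of 14 measured, 13 fell on day 3 and 12 on day 5, against 14.3% and 18.8% of all clusters called lower. Their median difference on day 5 was -0.47, beside -0.01 over all clusters. In the timed controls the fall was smaller. The mean log2 signal of the 14 was 11.52 on day 0, and 11.04 and 11.08 in withdrawn cells on days 3 and 5. It was 11.18 and 11.24 in the timed controls of those days. All 14 lay above the 75th percentile of mean signal. Psmb5, whose place Psmb8 takes in the immunoproteasome, fell by 0.44 on day 5 (adjusted p = 0.000199), and Psmb6, whose place Psmb9 takes, fell by 0.37 (0.000878). Psmb7, the remaining standing catalytic subunit, was at -0.05 (0.562). The largest fall of the 14 was that of Psmb3, which is not among these catalytic subunits, at -0.94 (8.95e-10). Psmb10, the remaining immunoproteasome catalytic subunit, did not follow Psmb8 and Psmb9: it was at 0.14 on day 1 and -0.21 on day 3, neither called, and fell by 0.64 on day 5 (2.02e-06). Psme1 and Psme2, the interferon-inducible activator subunits that open the core, rose by 0.77 (7.52e-11) and 0.46 (0.000424).

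**Figure D2:**
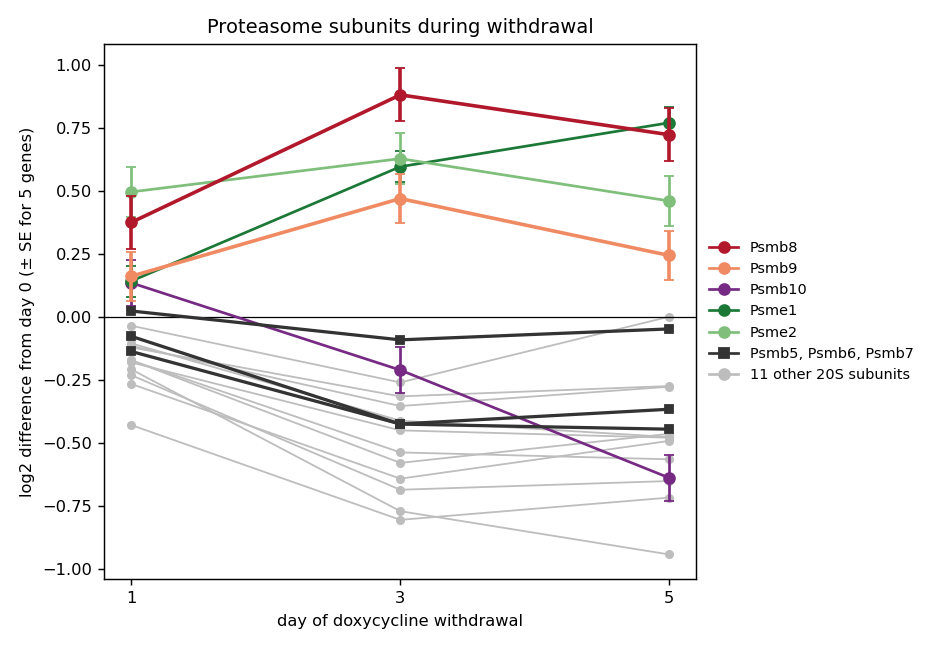
Log2 difference from day 0 (vertical axis) on days 1, 3 and 5 of withdrawal (horizontal axis) for proteasome genes, with SE bars for 5 of them; each point compares 3 arrays with 3. Psmb8, Psmb9, Psme1 and Psme2 lie above 0 on all 3 days, and Psmb10 ends at -0.64. The 14 other core subunits all lie below 0 on day 3 and 13 of them on day 5.

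The Ifitm genes fell from the first day on. Ifitm2 read 11.23, 11.27 and 11.27 on day 0 and 10.71, 10.46 and 10.54 on day 1 of withdrawal. It read 10.47, 10.39 and 10.41 on day 3, and 10.34, 10.24 and 10.38 on day 5. All 27 later arrays lay below the 3 of day 0. Its falls were -0.69 ± 0.08 (SE), -0.83 and -0.94 on days 1, 3 and 5 (adjusted p = 1.54e-06, 6.71e-09 and 2.71e-10). Ifitm3 read 11.11, 11.13 and 11.22 on day 0, between 10.41 and 10.55 on day 1, between 10.59 and 10.72 on day 3 and between 10.47 and 10.70 on day 5. Its falls were -0.66 ± 0.086, -0.52 and -0.59 (adjusted p = 1.03e-05, 2.93e-05 and 2.6e-06), with no step between the days called. Ifitm1 fell least: it read 12.02 to 12.09 on day 0, 11.67 to 11.90 on day 1, 11.75 to 11.91 on day 3 and 11.51 to 11.71 on day 5. Its falls were -0.28 ± 0.074 (adjusted p = 0.022), -0.24 (0.0147) and -0.47 (7.76e-06). The day 1 call of Ifitm1 was lost with only the compared groups fitted (0.0699) and without day 0 replicate 2 or 3 or day 1 replicate 2 or 3 (0.0646 to 0.142). The day 3 call was lost under quantile normalization (-0.13, 0.13) and without day 0 replicate 2 or day 3 replicate 1 or 2 (0.0528 to 0.0691). Ifitm2 and Ifitm3 fell while Irgm1 and B2m rose, and the windows of all 4 hold GAAANNGAAA. Whether these letters bear on either direction was not tested.

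The Ifitm family arose by duplication and its members are alike in sequence, so signal of 1 member may include others, and values of single members are uncertain in that respect. A further Ifitm1 cluster and 2 further Ifitm2 clusters followed those used (r of 0.96, 0.99 and 0.94 over the 30 arrays, a description). On day 5 the other Ifitm1 cluster differed by -0.79 and the other Ifitm2 clusters by -0.91 and -1.08, all called. Of the 4 other family members measured, Ifitm5, Ifitm6 and Ifitm7 fell on day 5, by 0.44, 0.47 and 0.41, and Ifitm10 was at 0.13 (adjusted p = 0.345).

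**Figure D3:**
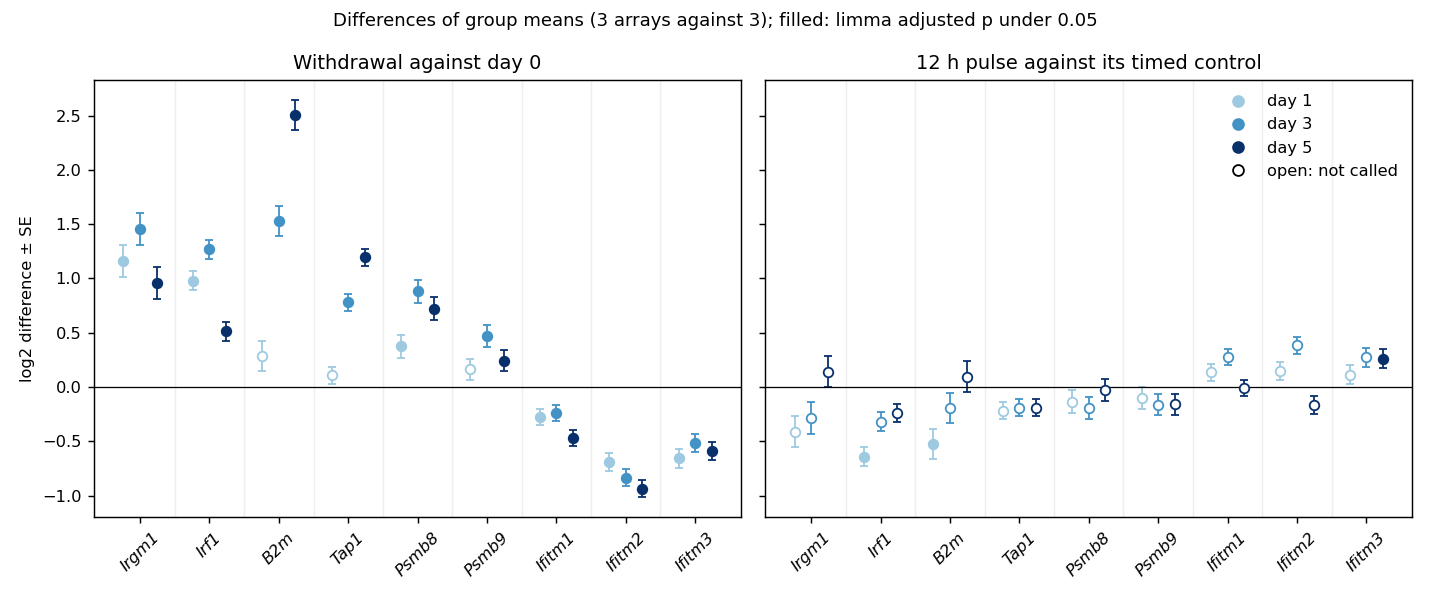
Log2 difference (vertical axis, with SE) of the 9 genes (horizontal axis) on days 1, 3 and 5, for withdrawal against day 0 on the left and the 12 h pulse against its timed control on the right; filled points were called. On the left B2m reaches 2.51 and Ifitm2 -0.94 on day 5; on the right 3 points are filled, Irf1 and B2m on day 1 and Ifitm3 on day 5.

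Other genes of the same pathways, in lists set by name with earlier results of these data known, moved in part. Of 13 other antigen presentation genes, 4 rose on day 1, 7 on day 3 and 9 on day 5. On day 5 the peptide-trimming enzyme Erap1 rose by 1.10 (adjusted p = 3.11e-08), the peptide-loading chaperone Tapbp by 0.91 (2.01e-10), the class I heavy chain H2-Q4 by 0.77 (4.98e-05) and Tap2, the partner of Tap1, by 0.46 (0.000105), while Psmb10 alone was called lower. Without day 0 replicate 2 or day 5 replicate 2, 2 were called lower, with arrays centred or quantile normalized 3 were, and the day 1 count was 2 without any 1 of the day 0 arrays or without day 1 replicate 2. The heavy chains H2-K1 and H2-D1 had no cluster naming them alone and were not analysed here. The 4, 7 and 9 of 13 compare with 3.49%, 19.6% and 23.8% of all clusters called higher on days 1, 3 and 5.

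Genes induced by interferons of either type moved less evenly. Of 32 type I and shared interferon-stimulated genes, 2 rose on day 1, 13 on day 3 and 16 on day 5, and 3 fell on day 5. Over all clusters 3.49%, 19.6% and 23.8% were called higher on these days, and 18.8% lower on day 5. The day 5 median of the 32 was 0.23. Rtp4 rose most, by 1.25 on day 5 (adjusted p = 2.92e-09), and Trim25, a ubiquitin ligase of the RNA-sensing route, fell most, by 0.39 (0.00107). Rsad2 (0.18), Ifit1 (0.36) and Mx1 (0.04), known markers of a type I response, were not called (adjusted p = 0.207, 0.0617 and 0.761). These 3 were named after their values were seen and do not stand for the list. Isg15 had no cluster naming it alone and was not analysed here. The list was dim: its median percentile of mean signal was 39.8, and 10 of the 32 lay below the 25th. Only 1 of the 32 was called lower without day 0 replicate 1 or day 5 replicate 2 or 3. With the dimmest 40 percent of clusters left out, 8 were called higher, of fewer than 32 genes, since that filter also removes dim members of the list. Of 11 interferon-gamma-induced GTPases and related genes, 4 rose on day 5, led by the guanylate-binding proteins Gbp7 (1.52, adjusted p = 3.12e-12) and Gbp3 (1.43, 4.39e-10), and Socs1, an inhibitor of JAK signalling, fell by 0.37 (0.00298). The 4 of 11 higher and 1 of 11 lower compare with 23.8% and 18.8% of all clusters on that day. Without day 0 replicate 2, 2 of the 11 were called lower.

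Upstream of these genes, the ligands Ifnb1 and Ifng were at 0.19 and 0.19 on day 5 and called on no day of withdrawal (on day 5 adjusted p = 0.189 and 0.211). Of 17 ligands, receptors and signal transducers, 10 rose on day 5, against 23.8% of all clusters called higher. The kinase Jak2 rose most, by 1.63 (2e-10), beside Jak1 at 0.66 (7.02e-07), the receptor chains Ifngr2 at 0.52 (1.25e-05), Ifngr1 at 0.31 (0.0114) and Ifnar2 at 0.78 (1.06e-06), and the transcription factor Stat2 at 0.50 (1.1e-05). On day 1 Stat2 was lower by 0.40 (0.0024) and Ifnar2 by 0.42 (0.0162), on the day when Irf1 and Irgm1 had already risen. In the main analysis 3.02% of all clusters were called lower on day 1. Without day 0 replicate 2 or day 1 replicate 1 or 3, 1 of the 17 was called lower on day 1.

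**Figure D4:**
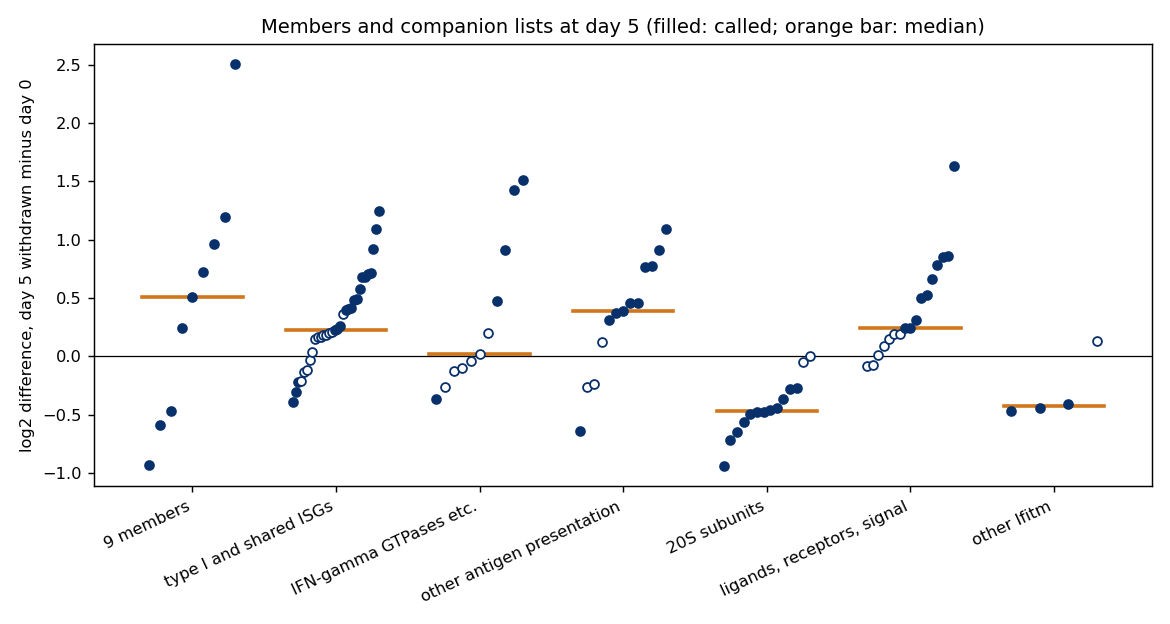
Log2 difference of day 5 of withdrawal from day 0 (vertical axis) for the 9 genes and for each companion list (horizontal axis); each point is 1 gene, filled where called, and the bar is the list median. The medians are 0.23 for the 32 type I and shared genes, 0.39 for the 13 other antigen presentation genes and -0.47 for the 14 core proteasome subunits.

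After the 12 h pulse of doxycycline, differences from the timed control on days 1 and 3 lay towards day 0 for all 9 genes. Few were called. The share of all clusters whose differences lay so is not given here, so this count only describes the 9. For the 6 genes that were higher in withdrawal, the log2 differences ran from -0.64 to -0.10 on day 1 and from -0.32 to -0.16 on day 3, with the second Irf1 cluster on the other side on day 3 (0.07). For the 3 Ifitm genes they ran from 0.11 to 0.15 on day 1 and from 0.27 to 0.38 on day 3. On day 5 the differences of 5 of the 9 lay towards day 0, those of Irf1, Tap1, Psmb8, Psmb9 and Ifitm3. That of Psmb8 changed sign among the alternatives (-0.14 to 0.16). The second Irf1 cluster lay on the other side on day 5 too (0.22, not called). On day 1 the pulse left Irf1 lower than the timed control: the control arrays read 9.94, 9.87 and 9.92 and the pulsed arrays 9.24, 9.15 and 9.40. The difference was -0.64 ± 0.086 (SE; adjusted p = 8.94e-05), with no overlap. B2m read 9.07, 9.22 and 9.01 in the control and 8.57, 8.38 and 8.77 after the pulse, a difference of -0.53 ± 0.14 (0.0327), again with no overlap. These 2 of 9 compare with 3.75% of all clusters called on that day (0.547% higher and 3.2% lower). The B2m call was lost with only the compared groups fitted (0.0778), under quantile normalization (0.0623), with the interquartile range of the array as a covariate (0.0612), and without replicate 1 or 2 of either group. With array weights 7 of the 9 were called, whereas the shares of all clusters given above are those of the main analysis.

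On day 3 none of the 9 was called by limma, with 5 of them at an unadjusted p under 0.05, 1 called with trend and robust variances and 5 with array weights. Over the whole array 9 clusters, 0.0385%, were called in the main analysis. The shares under the other fits are not given here. Ifitm2 read 10.21, 10.39 and 10.24 in the control and 10.50, 10.70 and 10.80 after the pulse, without overlap (0.38, adjusted p = 0.07). Irf1 read 9.72, 10.02 and 9.84 in the control and 9.49, 9.57 and 9.56 after the pulse, also without overlap (-0.32, 0.148).

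On day 5 Ifitm3 was the 1 member called, against 12.2% of all clusters (5.13% higher and 7.1% lower). It read 10.67, 10.76 and 10.97 in the control and 11.15, 11.09 and 10.94 after the pulse, so the arrays overlapped, and the difference was 0.26 ± 0.086 (SE; adjusted p = 0.0481). That call was lost with arrays centred on their medians (0.142), with only the compared groups fitted (0.256), with array weights (0.122) and with the replicate number as a block (0.0502). It was also lost without control replicate 1 (0.0931) or 2 (0.171) and without any 1 of the 3 pulsed arrays (0.0628 to 0.166). Ifitm2, raised in value by the pulse on day 3, was at -0.17 on day 5 (0.148). The difference between these pulse effects was -0.55 ± 0.11 (SE; adjusted p = 0.0245), against 0.936% of all clusters called for it. That difference was not called with only the compared groups fitted (0.145), with arrays centred on their medians (0.0824), or without the 4 widest arrays (-0.45, 0.142). Leaving out 1 of 7 of the 12 arrays also ended the call: day 3 control replicate 1 or 3, day 3 pulse replicate 2 or 3, day 5 control replicate 3, or day 5 pulse replicate 2 or 3 (0.052 to 0.105). For the day 3 minus day 1 and day 5 minus day 1 differences none of the 9 was called by limma, with 2 and 4 at an unadjusted p under 0.05, and 1 and 3 called with array weights. Over all clusters 0.00855% and 0.111% were called for these differences in the main analysis.

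After the pulse most of the 9 still differed from day 0. On day 1, 6 were called in pulsed cells (4 higher, 2 lower, against 6.23% and 4.99% of all clusters, 11.2% in all), on day 3, 7 (6 higher, 1 lower, against 14.4% and 10.9%, 25.3% in all) and on day 5, 7 (5 higher, 2 lower, against 21.4% and 17.8%, 39.2% in all). On day 5 the pulsed cells were above day 0 by 1.27 for Irgm1, 2.26 for B2m, 1.16 for Tap1, 0.58 for Psmb8 and 0.30 for Irf1, while Ifitm1 fell by 0.53 and Ifitm2 fell by 1.08. The Irf1 call was lost with arrays centred on their medians (0.0508) and without pulse replicate 1 (0.0506). Ifitm3 in pulsed cells read 10.86 to 10.93 on day 1, 10.99 to 11.19 on day 3 and 10.94 to 11.15 on day 5, beside 11.11 to 11.22 on day 0, and was called lower on day 1 alone (-0.26, adjusted p = 0.0488). That call, and the day 3 call of Psmb9 (0.26, 0.0495), were lost without any 1 array of the groups compared.

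The timed controls themselves moved over their 12 h. On day 1 they stood above the withdrawn cells by 0.86 ± 0.14 (SE) for B2m (adjusted p = 0.000823) and by 0.31 ± 0.086 for Irf1 (0.0322), 2 of 9 against 6.25% of all clusters called (5.02% higher). The Irf1 call was lost without any 1 of the 6 arrays. With the day 1 timed control at 9.10 ± 0.11 (SD, n = 3) for B2m, the pulsed cells at 8.57 ± 0.20 lay between it and the withdrawn cells at 8.24 ± 0.26. On day 3 and day 5 none of the 9 was called by limma for the further 12 h (1.69% and 3.31% of all clusters were), with 2 and 2 at an unadjusted p under 0.05, and none and 1 called with array weights. These comparisons share the timed controls with the pulse comparisons.

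Set in order over the 10 groups, B2m ran from day 0 (7.96 ± 0.12, SD, n = 3) through the 3 day 1 groups (8.24 to 9.10) and the 3 day 3 groups (9.14 to 9.49) to the 3 day 5 groups (10.12 to 10.47). Of the 9 neighbouring pairs in that order 7 overlapped; the breaks lay between the day 1 pulse and the day 1 control, and between day 3 withdrawn and the day 5 control. Tap1 fell in the same blocks by day, from 7.66 ± 0.08 on day 0 to 9.01 ± 0.17 in the day 5 control, and 4 of its 9 pairs overlapped. Irf1 had another order: after day 0 (8.62 ± 0.08) came the 3 day 5 groups (8.92 to 9.16), and the top 3 groups were day 3 control, day 3 withdrawn and day 1 control (9.86 to 9.91), with 5 pairs overlapping. Psmb8 had its 3 highest means in the 3 day 3 groups (7.74 to 7.99), with 7 pairs overlapping. For Irgm1, 8 of 9 pairs overlapped, and the break set day 0 (6.74 ± 0.07) apart from the other 9 groups (7.62 to 8.28). For Psmb9 and Ifitm1 all 9 pairs overlapped. For Ifitm2 and Ifitm3, 7 pairs overlapped; Ifitm2 broke between day 3 withdrawn and the day 1 control and again below day 0 (11.26 ± 0.02), while the 3 highest means of Ifitm3 after day 0 (11.15 ± 0.06) were the 3 pulsed groups (10.89 to 11.06), above the 3 control groups (10.78 to 10.80) and the 3 withdrawn groups (10.50 to 10.64).

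The genes most like each member over the 10 group means were sought among 6279 genes whose means spanned at least 0.5. They were Parp12 for Irgm1 (r = 0.96), Gja1 for Irf1 (0.97), Pdpn for B2m (0.99), Nktr for Tap1 (0.99) and Fndc3c1 for Psmb8 (0.98). For Psmb9 it was Psme4 (0.97), for Ifitm1 Fgf4 (0.95), for Ifitm2 Plaat3 (0.98) and for Ifitm3 Prdm14 (0.85). H2-Q4 was also among the 3 genes most like Psmb8 (0.96), and Rnf213 among the 3 most like Irgm1 (0.94). Among the members, Psmb8 and Psmb9 correlated at 0.87, Irgm1 and Psmb8 at 0.85, and Ifitm1 and Ifitm2 at 0.89. All these are descriptions over 10 points that share a time course and the same arrays.

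Markers of other cells moved with withdrawal as well. The 8 stem cell markers checked were all above the 75th percentile of mean signal, and 6 of them fell on day 5. Of 24 feeder fibroblast markers, 1 was called higher on day 1, 10 on day 3 and 12 on day 5, and 1 was called lower on each of days 3 and 5. Their summed linear signal ran from 6596 to 7121 on the day 0 arrays, 7116 to 7376 on day 1, 9175 to 10094 on day 3 and 9573 to 10719 on day 5, and from 7873 to 9027 in the day 5 timed control. Lum and Dcn, among the 24, were at 4.86 and 6.17 on day 0 and at 4.72 and 6.15 on day 5. Neither was called. Both lay below the lowest array median of 7.32, and they do not speak for the 12 called higher. Of 10 leukocyte markers, Cd68, a lysosomal protein, was the 1 called higher on day 5 (0.66, adjusted p = 6.72e-07). Of 8 extraembryonic endoderm and 9 trophectoderm and simple epithelium markers, 5 and 6 rose on day 5. Over all clusters 3.49%, 19.6% and 23.8% were called higher on days 1, 3 and 5, and 14.3% and 18.8% lower on days 3 and 5. The part of such cells in the results for B2m, Tap1 and the others was not tested, and in bulk RNA more cells of a type and more RNA per cell cannot be told apart.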

How the data were processed

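Biotin-labelled cRNA made from total RNA of 30 samples was read on Mouse Gene 1.0 ST arrays of Affymetrix. The deposited table holds log2 signals, 1 per transcript cluster and array. The authors made them in Expression Console by RMA, according to the submitters' processing notes; versions, annotation release and genome build are not given in the sources used here. RMA gives the arrays like distributions, so a shift of all genes together cannot be seen. Arrays have no read depth, and 3 arrays per group limit the precision.

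Of 28815 clusters in the platform table, 21780 had 1 symbol, 1605 several and 5430 none. The 23385 with a symbol were fitted in limma 3.58.1 (R 4.3.3) over all 30 arrays, with 1 mean per group and no covariate. Benjamini-Hochberg adjustment ran within each comparison. Groups came from the labels. None of the 30 replicate pairs held identical values. Same-numbered replicates did not deviate together: 36 of 135 pairs had a correlation over 0.1 (range -0.72 to 0.57), so the numbers were not used as a block in the main analysis. The fit was tested on simulated data. Alternatives covered variances, array weights, groups fitted, scaling, a filter on dim clusters, a replicate block, the array's interquartile range, left-out arrays and other clusters of a gene.

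The named genes were all 9 members, and per companion list the gene that rose most and the one that fell most on day 5, with every gene of short lists; partners of a member and genes named by role are additions. Members and lists were chosen with earlier results of these data known. Promoter letters came from the RefSeq table of GRCm38.p6.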

Additional observations from a re-analysis of the deposited data

Results flagged for a closer look

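The effect of the pulse on Ifitm2 differed between day 5 and day 3 by -0.55 on the log2 scale (SE 0.11, limma adjusted p = 0.0245 for the difference itself). The pulse minus timed control value was 0.38 on day 3 and -0.17 on day 5. The pulsed arrays were above all 3 control arrays on day 3 and overlapped with them on day 5. Of the 2 other Ifitm2 clusters, 10553299 gave -0.57 (adjusted p = 0.0182) and 10569014 gave -0.37 (adjusted p = 0.1).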

How the results depend on the processing

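The counts of the 9 genes called on days 1, 3 and 5 of withdrawal (6, 9 and 9) stayed within 1.5 times of these under each alternative that kept all arrays, and without 1 array they ran from 4 to 6, from 8 to 9 and from 8 to 9. In pulsed cells against day 0 the counts without 1 array were 5 to 5, 6 to 6 and 6 to 7 on days 1, 3 and 5, between days 1 and 3 they ran from 3 to 5, and between days 3 and 5 from 3 to 5. Without 1 array the further 12 h gave 1 to 2, 0 to 0 and 0 to 2 calls on days 1, 3 and 5, the pulse 1 to 2, 0 to 0 and 0 to 3, and the differences between pulses 0 to 0 (day 3 minus day 1 and day 5 minus day 1) and 0 to 1 (day 5 minus day 3). Array weights gave 7, 5 and 3 calls for the pulse on days 1, 3 and 5, 5 and 1 for the further 12 h on days 1 and 5, and 1, 3 and 2 for the differences of day 3 minus day 1, day 5 minus day 1 and day 5 minus day 3. Trend and robust variances gave 1 for the pulse on day 3 and 4 for the further 12 h on day 1, and so did leaving out the dimmest 40 percent. With only the compared groups fitted, the pulse gave 1 on day 1 and 0 on day 5, the further 12 h on day 1 gave 1 and the day 5 minus day 3 difference 0. Centring gave 3 for the step from day 3 to day 5, 0 for the pulse on day 5, 1 for the further 12 h on day 1 and 0 for the day 5 minus day 3 difference. Quantile normalization gave 1 for the pulse on days 1 and 3 and 1 for the day 5 minus day 1 difference. The interquartile range as a covariate gave 1 for the pulse on days 1 and 3, 1 for the further 12 h on day 5, 3 for the day 5 minus day 1 and 2 for the day 5 minus day 3 difference. Without the 4 widest arrays the pulse on day 5 gave 0, the further 12 h on day 1 gave 5 and the day 5 minus day 3 difference 0. Including clusters without a symbol gave 0 for the pulse on day 5, and so did the replicate block, which moved no other of these counts by over 1.5 times. The other Irf1 cluster gave 1 for the pulse and 1 for the further 12 h on day 1, and the Ifitm2 cluster 10569014 gave 0 for the day 5 minus day 3 difference. The share of all clusters called under each alternative is not given beside these counts, so whether the whole array shifted likewise is not shown. The cause of these shifts was not tested.

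Of 2678 values of single genes under the alternatives, 2517 kept their side of the threshold, 108 lost a call and 51 gained one. A further 2, called in the main analysis, turned in sign and were not called. Both came with the other Irf1 cluster (-0.0100 on day 1 of withdrawal and 0.0362 for the step between days 3 and 5). The 2517 include 93 values that changed sign without being called either way, counted without the other clusters of a gene. The other Irf1 cluster adds to these, with 0.07 for the pulse on day 3 and 0.22 on day 5. Differences near the spread of 3 arrays, such as most pulse effects, are at the limit of what this design can call.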
